A study of Mus musculus with 33 samples.

Results

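The 11 hepatocellular carcinomas of Sav1 -/- mice were ranked by the level of Glul, and the 4 highest were compared with the 4 lowest across all other genes. Glul encodes glutamine synthetase and was read by 1 probe, ILMN_2644496. The tumours were chosen by this level in the authors' deposited log2 values, so the Glul difference is given as a description only. The 8 tumours compared were part of 33 mouse liver samples, each run on 1 MouseWG-6 v2.0 bead array from Illumina. The other groups used here were 7 surrounding livers of Sav1 -/- mice and 3 normal livers of Sav1 flox mice. There were also 4 hepatocellular carcinomas and 3 surrounding livers of Mst1/2 -/- mice. For Glul, Ccnd1 and the sex-linked genes Xist, Eif2s3y and Kdm5d, 3 normal livers of Mst1/2 flox and 2 of Wt mice were added. Sav1 and the kinases Mst1 and Mst2 are core members of the Hippo pathway, and all 11 ranked tumours share the Sav1 deletion. Age, sex, strain, the Cre driver and any treatment are not given in the sources used here, nor whether the tumours came from separate mice. The p-values therefore reflect the spread among the tumours sampled, part of which may be technical.

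As background, hepatocytes around the central vein receive Wnt signals from the endothelium of that vein, and beta-catenin with TCF/LEF factors there switches on a pericentral set of genes. Glul marks the innermost pericentral hepatocytes, which take up leftover ammonia and glutamate and make glutamine, whereas periportal hepatocytes use ammonia for urea. In pathology, strong glutamine synthetase staining is used as a marker of liver tumours with activated beta-catenin. Mutations were not measured in these samples.

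Levels below are log2 normalized signals on a microarray, each ± values is an SD over tumours, and a difference is the mean log2 level of the 4 Glul-high tumours minus that of the 4 Glul-low tumours, ± its standard error. Genes were tested with limma over the 11 tumours in 3 sets (4 high, 3 middle, 4 low), with Benjamini-Hochberg adjustment over all 14035 genes other than Glul and a threshold of 0.05. Only genes past that threshold are said to have risen or fallen. Between 40.3% and 51.7% of the 45281 probes exceeded the background estimated for each Sav1 tumour array. Precision is limited by how few tumours each set holds. The arrays of the series were clustered by their pattern of signal over 12360 probes above background on no array, and cut into 3 sets. The number of sets was chosen and not found. The mean correlation within a set was 0.151 in A, 0.0143 in B and 0.0199 in C. With arrays of the other sets it was -0.0972, -0.0788 and -0.0401, so B and C were only weakly set apart. Set A held 1 Glul-high and 2 Glul-low tumours (tumour 3 against tumours 1 and 2), set B held 3 and 1 (tumours 6, 8 and 11 against tumour 9), and set C held 1 Glul-low tumour (tumour 5) and 1 middle tumour. Fewer probes exceeded background in tumours 3, 2 and 1 of set A (40.3%, 43.4% and 41.5%) than in the other Sav1 tumours (47.8% to 51.7%). The labels name no such sets. Both sets carried hepatocyte transcripts: Apoa1, an apolipoprotein made by hepatocytes, averaged 15.48 ± 0.07 in the Glul-high and 15.45 ± 0.18 in the Glul-low tumours. The probe kept for Alb, the albumin gene, averaged only 7.46 ± 0.45 and 7.80 ± 1.19 (n = 4 each).

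The promoters of 3 genes are shown because Glul defines the sets, Slc1a2 showed the largest difference among the genes that passed, and Sp5 is a known Wnt target. Each window runs from 250 bases before to 50 bases after the gene start on the strand of the gene, from RefSeq on build GRCm38.p6. Glul lies at chr1:153899679-153899978, Slc1a2 at chr2:102706188-102706487 and Sp5 at chr2:70474673-70474972, all on the plus strand. Capitals mark CTTTGA, the core of sites bound by TCF/LEF factors, or TCAAAG where it lies on the opposite strand.
Glul: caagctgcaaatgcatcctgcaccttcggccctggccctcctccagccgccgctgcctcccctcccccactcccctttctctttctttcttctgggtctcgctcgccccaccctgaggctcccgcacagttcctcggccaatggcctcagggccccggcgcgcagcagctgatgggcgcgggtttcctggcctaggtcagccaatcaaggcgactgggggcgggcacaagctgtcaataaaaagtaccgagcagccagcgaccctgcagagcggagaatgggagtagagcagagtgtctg
Slc1a2: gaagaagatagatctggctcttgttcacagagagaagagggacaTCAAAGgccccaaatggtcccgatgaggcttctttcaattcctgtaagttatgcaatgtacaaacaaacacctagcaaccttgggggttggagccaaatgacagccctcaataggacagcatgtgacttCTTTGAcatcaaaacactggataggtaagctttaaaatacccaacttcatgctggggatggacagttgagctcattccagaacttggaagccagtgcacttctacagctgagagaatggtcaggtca
Sp5: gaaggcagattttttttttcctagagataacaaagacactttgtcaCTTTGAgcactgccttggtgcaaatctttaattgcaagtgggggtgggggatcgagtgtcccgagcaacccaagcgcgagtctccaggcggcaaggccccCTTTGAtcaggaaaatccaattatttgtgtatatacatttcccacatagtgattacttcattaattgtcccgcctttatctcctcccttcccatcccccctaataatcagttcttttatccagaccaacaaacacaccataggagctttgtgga
The Slc1a2 window held the motif at bases 174 to 179 and, on the opposite strand, at bases 45 to 50. The Sp5 window held it at bases 47 to 52 and 147 to 152, and the Glul window held none. On either strand the motif occurred in 5257 of 32851 promoter windows (16%). Of 41 genes (Glul and the tested members of the Wnt and pericentral lists used below), 28 had a window and 10 of these held the motif. A match is a description of letters and not a binding site. No window was found for Rhbg, Rgn, Arg1, Tbx3, Lgr5, Notum and Cps1, so the motif was not looked for in these genes.

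The Glul levels of the 11 Sav1 tumours fell into separate clusters. Tumours 6, 8, 11 and 3 stood at 13.66, 13.26, 13.06 and 12.72 (mean 13.18 ± 0.39). The next tumour lay 3.74 lower: tumours 10, 7 and 4, the middle set, stood at 8.98, 8.88 and 8.55. Tumours 2, 9, 5 and 1, the Glul-low set, stood at 7.87, 7.86, 7.77 and 7.32 (mean 7.71 ± 0.26), and only 0.68 separated the middle from the low set. The lowest member of the high set and the highest tumour outside it were thus far apart, while the border between middle and low was narrow. The high and low means differed by 5.47, or 44.3-fold.

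Against the other groups, the Glul-high tumours stood above every other sample of the series. The 3 Sav1 flox livers stood at 8.61 to 9.55, the 3 Mst1/2 flox livers at 10.29 to 10.54 and the 2 Wt livers at 8.87 and 9.24. Xist averaged 10.91 in the Mst1/2 flox and 6.19 in the Sav1 flox livers, and the Y-linked gene Eif2s3y 6.10 and 11.47. These 2 groups thus appear to differ in sex, and its part in their Glul levels was not tested. The Wt livers were low in both genes (6.30 and 6.85), but the Y-linked gene Kdm5d averaged 7.95 in them. Kdm5d averaged 8.22 in the Sav1 flox and 6.14 in the Mst1/2 flox livers. The 7 Sav1 surrounding livers ran from 8.27 through a median of 10.50 to 12.44, and the 3 Mst1/2 surrounding livers from 7.78 to 8.41. Mst1/2 tumour 3 stood at 11.85 and the other 3 Mst1/2 tumours at 7.26 to 7.74. The Glul-low Sav1 tumours lay below all 3 Sav1 flox livers. A bulk array cannot tell fewer cells of a type from less RNA per cell.

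**Figure D1:**
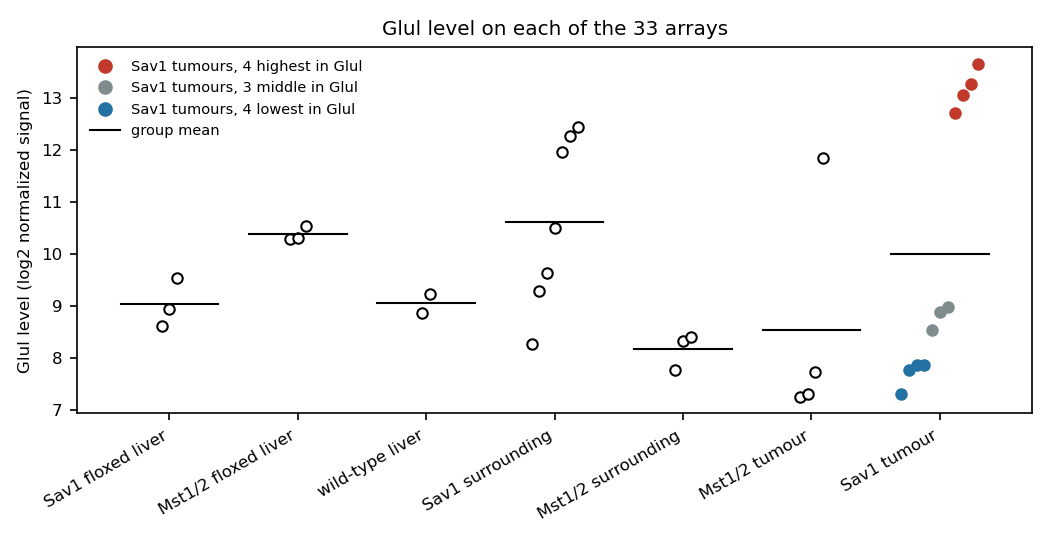
Glul level (log2 normalized signal, vertical axis) on each of the 33 arrays by group, with 1 point per array and a line at each group mean. The 4 highest Sav1 tumours (red) lie between 12.72 and 13.66, the 3 middle tumours (grey) between 8.55 and 8.98 and the 4 lowest (blue) between 7.32 and 7.87, and 1 Mst1/2 tumour stands at 11.85.

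Of 14035 genes, 7 rose (0.0499%) and 2 fell (0.0143%) in the Glul-high tumours. The risen genes were Slc1a2, Rhbg, Rgn, Nkd1, Tuba8, Cyp2d40 and Teddm1b, and the fallen ones were Arg1 and Fbrsl1. Without any overlap between the 4 high and the 4 low tumours, 291 genes were higher (2.07%) and 314 lower (2.24%). At an unadjusted p threshold of 0.05 the counts were 502 higher (3.58%) and 524 lower (3.73%), and at a 2-fold difference 286 higher (2.04%) and 237 lower (1.69%). The median difference over all genes was -0.01, which quantile normalization holds near 0. Whole profiles of the sets were not far apart either: the median correlation between arrays over genes was 0.947 within the high set, 0.932 within the low set and 0.937 between the sets.

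The counts rested on few tumours. Leaving out Glul-high tumour 6 or 8, or Glul-low tumour 9 or 5, left no gene past the threshold in limma (751 to 1071 genes at an unadjusted p below 0.05). Leaving out tumour 3 left 1 risen and 1 fallen gene, and leaving out tumour 2 left 2 of each.

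**Figure D2:**
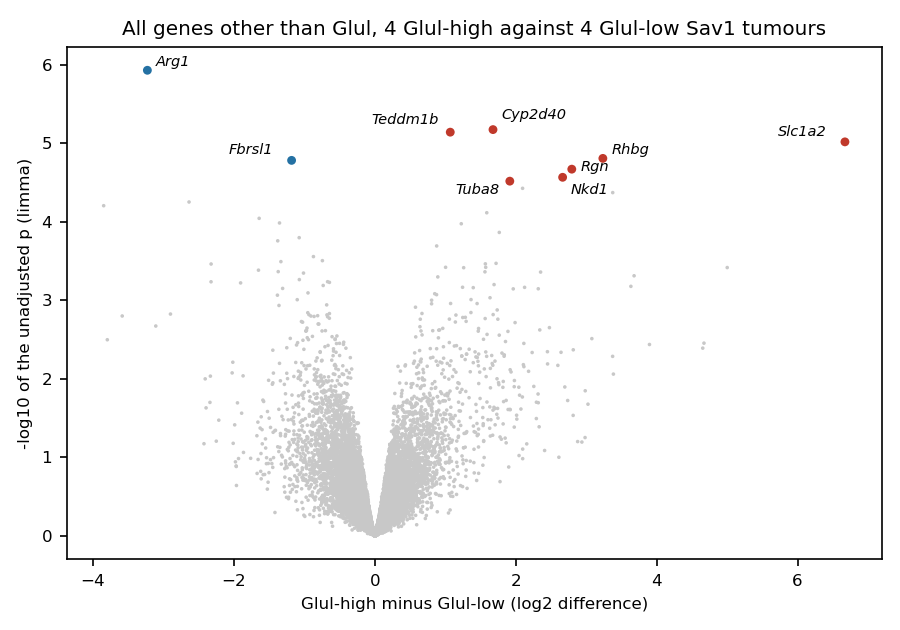
Difference of each of 14035 genes (Glul-high minus Glul-low tumours, log2, horizontal axis) against -log10 of its unadjusted limma p (vertical axis), with 1 point per gene. The 7 genes that rose are red and the 2 that fell are blue, and Slc1a2 lies farthest to the right at 6.67.

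Slc1a2, which encodes the glutamate transporter GLT-1 and is restricted in liver to the innermost pericentral hepatocytes, had the largest rise. Tumours 6, 8, 11 and 3 stood at 14.93, 14.20, 12.63 and 14.44, the middle tumours 10, 7 and 4 at 7.63, 7.64 and 6.58, and the Glul-low tumours 2, 9, 5 and 1 at 10.09, 6.24, 6.49 and 6.69. The sets did not overlap, tumour 2 stood apart from the other 3 Glul-low tumours, and 3 of the 4 Glul-low arrays exceeded background. The difference was 6.67 ± 0.82 (102-fold, adjusted p = 0.034 in limma). This fold is approximate, since not all Glul-low arrays exceeded background and tumour 2 stood apart. The Sav1 flox livers lay between the sets at 11.47 to 12.30, and the Sav1 surrounding livers at 8.38 to 12.50. With the array set as a block the difference was 6.79 ± 0.86 (adjusted p = 0.074), within set B it was 7.68, and within set A it was 6.05. Each of those sets holds 1 tumour on one side, so the within-set values are given without a test. Over 18 alternatives the Slc1a2 difference ran from 4.55 to 7.68 and passed in 8.

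Rhbg encodes an ammonia transporter of the Rh family that sits on pericentral hepatocytes. It stood at 10.87, 9.49, 9.76 and 11.06 in tumours 6, 8, 11 and 3 and at 7.22, 6.60, 6.53 and 7.88 in tumours 2, 9, 5 and 1. It rose by 3.24 ± 0.42 (9.42-fold, adjusted p = 0.038). All 4 Glul-high tumours also exceeded the Sav1 flox livers, which stood at 7.51 to 7.79. Rhbg and Arg1 were the called genes that passed again with the array set as a block, Rhbg at 3.39 ± 0.36 (adjusted p = 0.043).

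Rgn encodes regucalcin, a gluconolactonase of the mouse vitamin C pathway. It stood at 12.05, 11.71, 11.95 and 11.25 in the Glul-high tumours, in the same order, and at 8.23, 8.32, 9.33 and 9.91 in the Glul-low tumours, a rise of 2.80 ± 0.38 (6.94-fold, adjusted p = 0.043). The flox livers stood at 9.83 to 10.08, below all 4 Glul-high tumours and near the highest Glul-low tumour.

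Nkd1, an inhibitor of Wnt signalling that Wnt itself induces, stood at 8.63, 8.68, 8.32 and 10.31 in the Glul-high tumours. In the Glul-low tumours it stood at 6.67, 6.33, 6.20 and 6.07 and exceeded background on only 1 of the 4 arrays. It rose by 2.67 ± 0.37 (adjusted p = 0.047), and no fold is given because the low set lay mostly at background. Every Glul-high tumour was above the flox livers (6.95 to 7.20) and the surrounding livers (7.00 to 7.83).

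The remaining risen genes were not members of either list. Tuba8, an alpha-tubulin, rose by 1.92 ± 0.27 (3.77-fold, adjusted p = 0.047) to 8.22 to 9.25, above the flox livers at 6.36 to 6.52. Cyp2d40, a cytochrome P450, rose by 1.68 ± 0.20 (3.20-fold, adjusted p = 0.034), but its Glul-high level of 10.03 ± 0.38 lay below the flox livers at 11.56 to 11.97. The middle tumours had Cyp2d40 at 9.59 ± 0.15, close to the high set, so this gene ordered the tumours differently from Slc1a2 and Nkd1.

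Teddm1b, a transmembrane protein gene, stood at 6.92, 7.37, 6.98 and 7.15 in the Glul-high tumours and at 6.17, 5.94, 5.94 and 6.09 in the Glul-low tumours, where no array exceeded background. It rose by 1.07 ± 0.13 (adjusted p = 0.034), which is at least 1.57-fold when the low set is put at the lowest signal above background. Teddm1b is a neighbour of Glul on chromosome 1: it is 2 protein-coding genes away and the promoter windows start 25584 bases apart. Of the other genes within 5 places of Glul, looked at after the values were seen, Teddm2 differed by 0.68 ± 0.21 (adjusted p = 0.44), Cacna1e by -0.04, Mr1 by -0.17 and Stx6 by -0.01. Mst1/2 tumour 3 had the highest Teddm1b level, 8.30, against 5.91 to 6.27 in the other 3 Mst1/2 tumours.

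Arg1, the periportal enzyme that releases urea from arginine, fell most clearly. It stood at 10.23, 10.04, 10.95 and 9.62 in the Glul-high tumours, 14.37, 14.86 and 13.85 in the middle tumours and 13.40, 13.98, 13.30 and 13.08 in the Glul-low tumours. It fell by 3.23 ± 0.32 on the log2 scale (9.37-fold lower, adjusted p = 0.016). The flox livers stood at 14.44 to 14.71, the surrounding livers at 14.07 to 14.67 and the 4 Mst1/2 tumours at 13.13 to 13.65, so the 4 Glul-high Sav1 tumours were below all of these. With the array set as a block the difference was -3.60 ± 0.24 (adjusted p = 0.0024), and within sets B and A it was -3.57 and -3.62, with no test.

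Fbrsl1, a fibrosin-like gene, fell by 1.18 ± 0.16 on the log2 scale (2.27-fold lower, adjusted p = 0.038). It stood at 8.72 to 8.93 in the Glul-high tumours and 9.69 to 10.30 in the Glul-low tumours, with the flox livers between them at 9.30 to 9.63.

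Among the genes next in order of p, none of which passed, Rmdn2 differed by 2.10 ± 0.30 (adjusted p = 0.052), and Cyp2c29, a pericentral cytochrome P450, by 3.38 ± 0.49 (adjusted p = 0.054). Pramel4 (1.59), Krt75 (1.23) and Tm7sf2, a sterol reductase gene (1.77), followed with adjusted p from 0.077 to 0.11. On the lower side, Cps1, the enzyme that commits ammonia to the urea cycle, stood at 10.24, 9.73, 11.39 and 9.58 in the Glul-high and at 12.38, 13.17, 12.81 and 13.12 in the Glul-low tumours, a difference of -2.64 ± 0.40 (adjusted p = 0.065). Gldc, the decarboxylase of the glycine cleavage system, stood at 7.40, 7.38, 8.47 and 8.30 against 9.86, 12.02, 13.12 and 11.95, a difference of -3.85 ± 0.59 (adjusted p = 0.067). The middle tumours had Gldc at 12.92 ± 0.40 and the flox livers at 13.49 to 14.47. Zfp750, Enc1, Lars, Lasp1, Qrsl1, 9530068E07Rik, Spag5 and Krtcap3 differed by -0.74 to -2.32 with adjusted p from 0.084 to 0.17.

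For the 9 genes that passed, the mean of the 3 middle tumours was nearer to the Glul-low than to the Glul-high mean in 8. When the 4 Glul-high tumours were set against all 7 other Sav1 tumours, a comparison chosen after the values were seen, 7 genes rose and 3 fell. Rmdn2 and, on the lower side, Gldc and Zfp750 were called there (adjusted p = 0.0077, 0.018 and 0.018), while Cyp2d40 and Fbrsl1 were not.

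**Figure D3:**
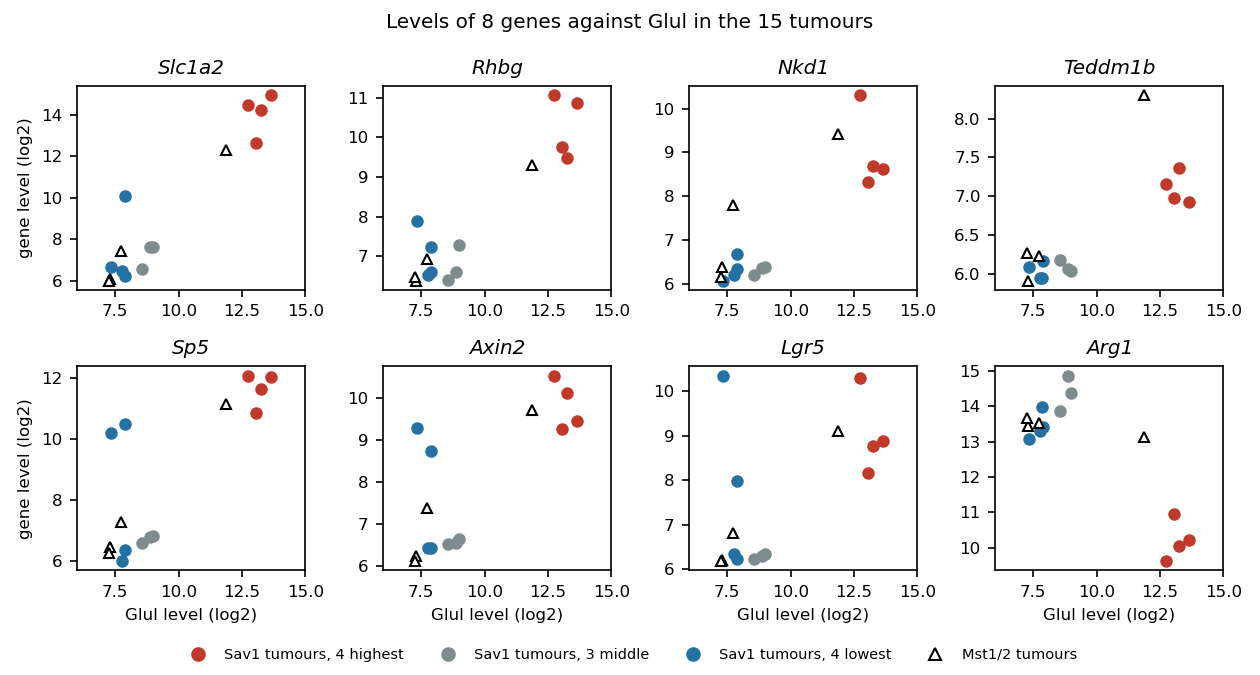
Level of 8 genes (log2, vertical axes) against the Glul level (log2, horizontal axes), with 1 point per tumour for the 11 Sav1 tumours (coloured by set) and the 4 Mst1/2 tumours (triangles). In 2 of the 4 Glul-low tumours Sp5, Axin2 and Lgr5 stand apart above the other 2, Nkd1 lies at 6.07 to 6.67 in all 4, and Arg1 is lowest in the 4 Glul-high tumours.

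Pericentral hepatocyte genes had higher means in the Glul-high tumours throughout the list. Of 25 tested members, Slc1a2, Rhbg and Rgn rose and none fell, and 11 did not overlap between the sets (44.0%, against 2.07% of all genes). The difference was positive for all 25, with a median of 1.86 against -0.01 over all genes. The list shares Slc1a2, the second marker named with the ranking, and was chosen with earlier results of these data known, so its direction is no independent evidence.

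The members without overlap that missed the threshold included Oat, ornithine aminotransferase, which leads from ornithine towards glutamate. Oat stood at 14.50, 14.40, 14.41 and 15.54 in the Glul-high and 12.31, 9.69, 9.52 and 12.63 in the Glul-low tumours, a difference of 3.68 ± 0.73 (adjusted p = 0.18). Cyp1a2, a drug-metabolising cytochrome P450, stood at 13.26, 13.15, 13.10 and 15.07 against 10.65, 6.52, 6.70 and 12.09 (4.65 ± 1.26, adjusted p = 0.38). Gulo, which makes vitamin C in the mouse, stood at 13.55, 13.59, 13.33 and 14.58 against 11.72, 8.71, 7.83 and 13.24 (3.39 ± 1.05, adjusted p = 0.46). In each of these 3 genes tumours 1 and 2 were above tumours 9 and 5. Lhpp (3.08), Gstm2 (3.03), Cyp2a5 (1.58) and Slco1b2 (1.54) completed the members without overlap, with Cyp2c29.

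Cyp2e1, the ethanol-metabolising cytochrome P450, showed the same spread within the Glul-low set. It stood at 15.60 in both tumours 2 and 1, level with 15.28 to 15.60 in the Glul-high tumours. In tumours 9 and 5 it stood at 8.81 and 10.52 (difference 2.88 ± 1.38, adjusted p = 0.71). Levels near 15.60 lie close to the top of the scale (Apoc3 averaged 15.85 in the Mst1/2 surrounding livers), so differences there may be compressed. The remaining members were Avpr1a (2.94), Nr1i3 (2.05), Cyp2c37 (1.86), Pon1 (1.82), Cyp2c50 (1.75), Gstm3 (1.71), Slc13a3 (1.11), Cyp27a1 (1.04), Cyp2c54 (0.78), Cyp3a11 (0.59), Cyp7a1 (0.58), Aldh1a1 (0.48) and Gstm1 (0.00), all overlapping between the sets and with adjusted p of at least 0.51. The values in parentheses are log2 differences.

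The Wnt feedback and target list covers genes that Wnt signalling induces in liver or elsewhere, several of which feed back on the pathway. Of 15 tested members, Nkd1 rose and none fell. Nkd1, Tbx3, Sp5 and Tnfrsf19 did not overlap (26.7%, against 2.07% of all genes), and the median difference was 1.30. Sp5, a transcription factor, stood at 10.84 to 12.06 in the Glul-high tumours and at 10.47, 6.36, 6.01 and 10.19 in tumours 2, 9, 5 and 1 (3.37 ± 0.95, adjusted p = 0.40). Tbx3, a transcription factor of Wnt-responsive hepatocytes, stood at 11.95, 10.95, 11.04 and 11.32 against 9.26, 5.72, 6.47 and 9.28 (3.63 ± 0.75, adjusted p = 0.19). The receptor gene Tnfrsf19 stood at 10.22 to 11.20 against 8.27 to 10.03 (1.55 ± 0.47, adjusted p = 0.44).

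Axin2, a scaffold of the complex that degrades beta-catenin, stood at 9.45, 10.12, 9.27 and 10.53 in the Glul-high tumours and at 8.75, 6.44, 6.43 and 9.29 in tumours 2, 9, 5 and 1 (2.12 ± 0.63, adjusted p = 0.42). Lgr5, a receptor for R-spondins, stood at 8.88, 8.76, 8.15 and 10.29 against 7.99, 6.23, 6.34 and 10.35 (1.30 ± 0.82, adjusted p = 0.78). Tumour 1, lowest of all 11 in Glul, thus had the highest Lgr5 level among the 8 tumours. Notum, a secreted enzyme that inactivates Wnt proteins, stood at 9.16 in tumour 1 and at 6.41 to 6.83 in the other 3 Glul-low tumours, against 8.62 to 10.87 in the Glul-high tumours (2.45 ± 0.68, adjusted p = 0.39).

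The Glul-low set was therefore not uniform. Tumours 1 and 2 carried Axin2, Sp5, Tbx3, Lgr5 and Cyp2e1 above tumours 9 and 5, while Nkd1 (6.07 and 6.67) stayed below the flox livers and Rhbg (7.88 and 7.22) was near them and above tumours 9 and 5 (6.60 and 6.53). Tumours 1 and 2 lie in array set A and tumours 9 and 5 in sets B and C, so array set and tumour cannot be told apart within the low set. Against the flox livers, Axin2 in tumours 1 and 2 was above the range of 7.44 to 8.33, and Sp5 above 8.03 to 8.71. The 3 middle tumours had Axin2 at 6.53 to 6.64, Sp5 at 6.59 to 6.82 and Lgr5 at 6.23 to 6.34, near the levels of tumours 9 and 5.

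Apcdd1, a Wnt inhibitor of the cell surface, averaged 7.70 in the Glul-high tumours, where 3 of 4 arrays exceeded background, and was above background on no Glul-low array. It did not pass (measured means 7.70 and 6.25, adjusted p = 0.61 in limma). The bound used for Teddm1b gave at least 2.36-fold for the set means, but not for each tumour. Tumours 6, 8, 11 and 3 stood at 6.04, 9.51, 7.63 and 7.60, so tumour 8 weighed most in the mean. Wif1 (0.82), Rnf43 (0.33), Dkk1 (0.12), Ccnd1 (-0.02), Myc (-0.06) and Cd44 (-0.08) gave adjusted p of at least 0.78, and Dkk4 was not above background on any array of either set. Ccnd1, cyclin D1, averaged 12.78 and 12.81. All 11 Sav1 tumours had Ccnd1 at 11.86 to 13.17, above the Sav1 flox livers at 8.88 to 9.72. The Mst1/2 flox livers stood at 9.42 to 10.59 and the 2 Wt livers at 11.29 and 11.50. The Sav1 surrounding livers, at 10.50 to 13.02, overlapped with the tumours.

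**Figure D4:**
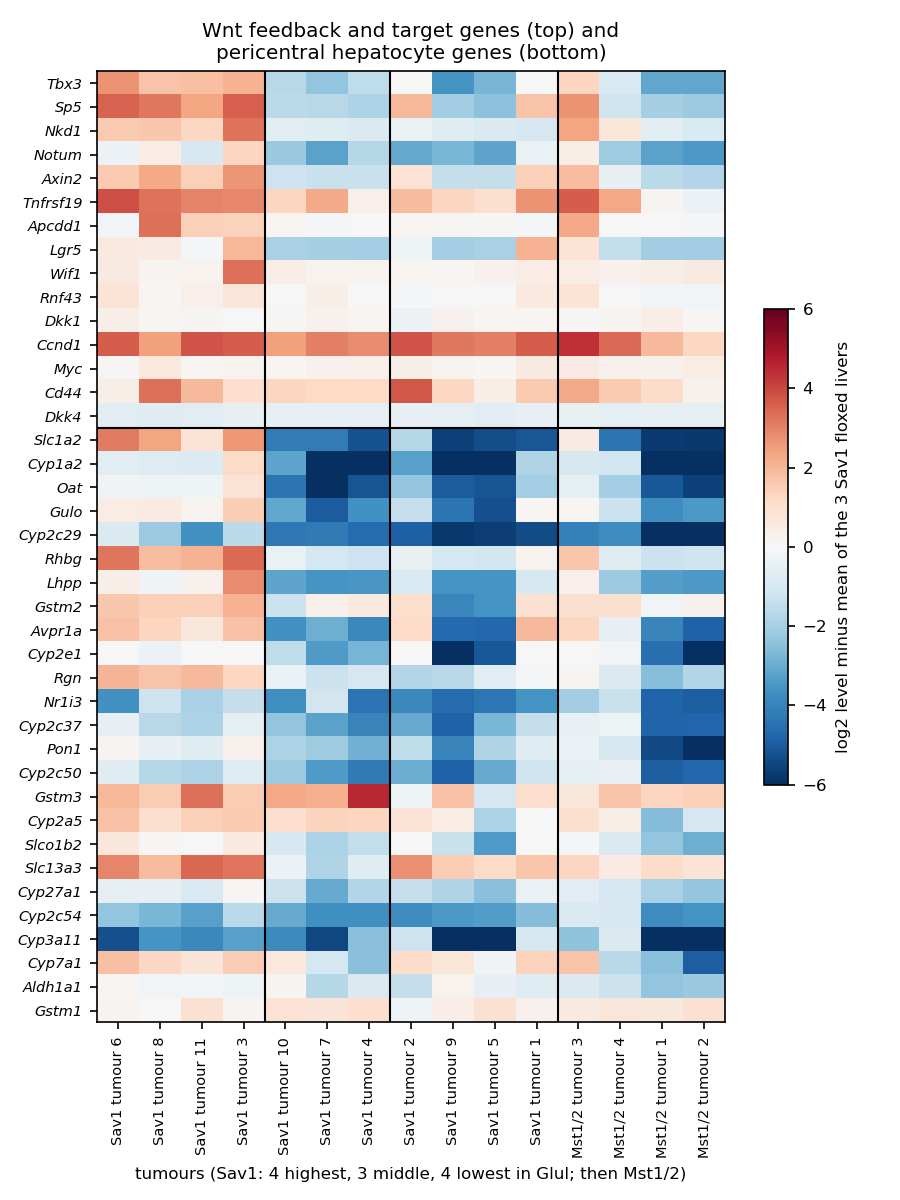
Log2 level minus the mean of the 3 Sav1 flox livers (colour, limited to 6 on either side) for 15 Wnt feedback and target genes (top) and 25 pericentral genes (bottom), over the 11 Sav1 tumours in order of Glul and the 4 Mst1/2 tumours. Slc1a2 ran from 12.63 to 14.93 in the 4 Glul-high tumours, and tumours 2 and 1 of the Glul-low set resemble the high set in Axin2, Sp5 and Cyp2e1 but not in Nkd1.

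Among 33 tested components of the Wnt pathway (ligands, receptors, secreted inhibitors and the degradation complex) none rose or fell in limma. At an unadjusted p below 0.05, 2 were lower, against 3.73% of all genes, and the median difference was 0.04. Without overlap, 1 was higher and 1 lower (3.03% each), near the 2.07% and 2.24% of all genes. Ctnnb1, beta-catenin itself, averaged 13.51 and 13.72 (-0.22 ± 0.33, adjusted p = 0.92). The ligand Wnt4 stood at 6.13, 6.63, 6.78 and 6.19 in the Glul-high tumours and at 7.77, 9.51, 9.85 and 7.89 in the Glul-low tumours, without overlap (-2.32 ± 0.47, adjusted p = 0.19). The flox livers had Wnt4 at 6.33 to 6.61, as the Glul-high tumours did. Sfrp2, a secreted Wnt antagonist, stood at 11.30 in tumour 8 alone, against 6.29 to 6.91 in the other 3 Glul-high tumours, and exceeded background on no Glul-low array.

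Periportal hepatocyte genes had mostly lower means in the Glul-high tumours. Of 22 tested members Arg1 fell and none rose, 4 were lower without overlap (18.2%, against 2.24% of all genes) and 1 was higher (4.55%). The difference was negative for 19 of 22, with a median of -0.62. Beside Arg1 and Cps1, the lower members without overlap were Sfxn1, a mitochondrial serine carrier (10.09 against 12.99, difference -2.90 ± 0.67, adjusted p = 0.28), and Hal, the enzyme that begins histidine breakdown (6.79 against 8.82, -2.02 ± 0.62, adjusted p = 0.46). Pigr, the polymeric immunoglobulin receptor, ran the other way (12.59 against 10.27, 2.32 ± 0.80, adjusted p = 0.56).

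Other genes of the urea cycle did not pass. Ass1 and Asl, which make and cleave argininosuccinate, differed by -0.69 ± 0.40 and -0.25 ± 0.47, and Otc, ornithine transcarbamylase, by -0.50 ± 0.43 (adjusted p from 0.75 to 0.94). Over the 22 tested genes of the urea cycle and amino acid catabolism, 1 fell, Arg1, none rose, and the median was 0.03.

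Of 22 tested genes handling glutamine, glutamate and ammonia, Slc1a2 and Rhbg rose, none fell, 4 were higher without overlap (18.2%, against 2.07% of all genes) and the median was 0.25. The other pair without overlap was Oat and Prodh, proline dehydrogenase (12.51 against 10.16, 2.35 ± 0.46, adjusted p = 0.17), which was named after its value was seen. Asns, asparagine synthetase, which consumes glutamine, averaged 8.90 in the Glul-high and 11.31 in the Glul-low tumours (-2.41 ± 0.76, adjusted p = 0.48). Glud1, glutamate dehydrogenase, averaged 13.42 and 14.03 (-0.61 ± 0.45, adjusted p = 0.81).

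**Figure D5:**
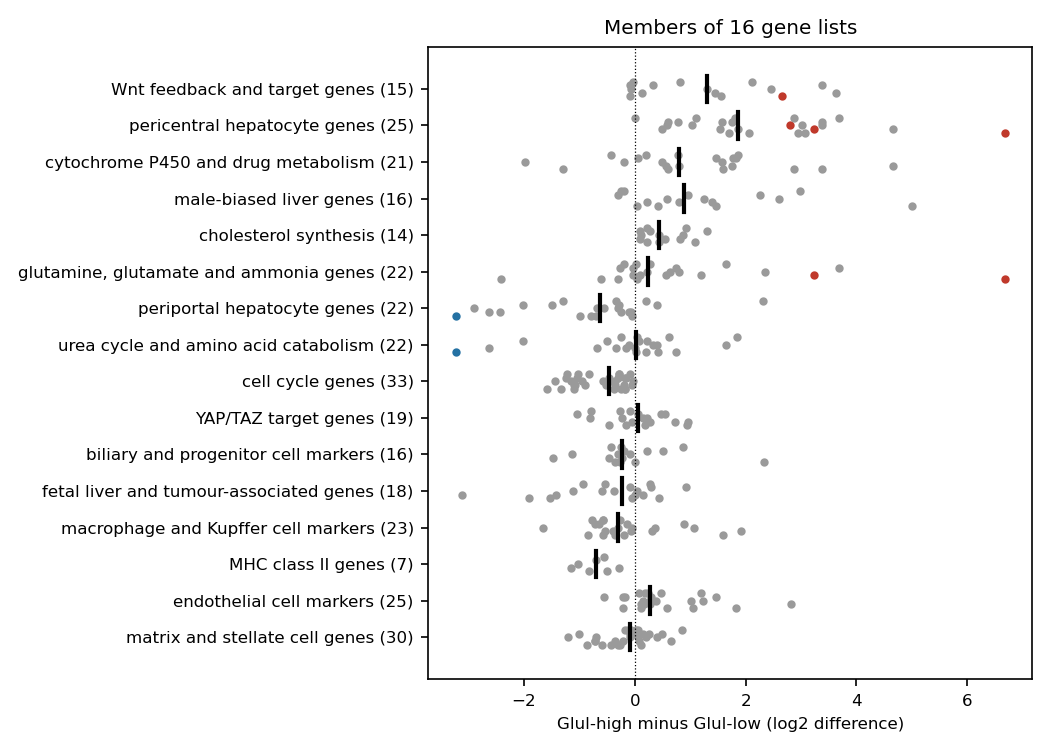
Log2 difference (Glul-high minus Glul-low tumours, horizontal axis) of each tested member of 16 gene lists, with 1 point per gene, the number tested in parentheses and a black bar at the list median. Red points rose, blue points fell and grey points did not pass, and the medians run from 1.86 for pericentral genes to -0.70 for MHC class II genes.

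None of 33 tested cell cycle genes passed in limma. At an unadjusted p below 0.05, 11 were lower, against 3.73% of all genes. The difference was negative for all 33, with a median of -0.46 against -0.01 over all genes. Cdca8, Bub1b, Nusap1, Aurka, Prc1 and Cdk1 were lower without overlap (18.2%, against 2.24%). Prc1, a protein of the spindle midzone, averaged 8.70 and 10.27 (-1.58 ± 0.57, adjusted p = 0.58), and Nusap1, a spindle protein, 8.17 and 9.61 (-1.45 ± 0.40, adjusted p = 0.39). Genes of this list are known to be co-expressed in dividing cells, so their shared sign is not 33 separate observations.

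The 19 tested YAP/TAZ target genes, induced when Hippo signalling is lost, had a median difference of 0.06, with 10 positive and 9 negative. None passed the threshold. At an unadjusted p below 0.05, 2 were higher and 2 lower, against 3.58% and 3.73% of all genes. Ccn2, the connective tissue growth factor gene, averaged 12.43 and 13.23 (-0.81 ± 0.33, adjusted p = 0.63), and Ccn1 10.65 and 9.69 (0.96 ± 0.67, adjusted p = 0.80). The sign of this median changed in 6 of 18 alternatives.

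Among 16 male-biased liver genes, none passed (6 higher at an unadjusted p below 0.05, against 3.58% of all genes), 4 were higher without overlap (25%, against 2.07% of all genes) and the median was 0.88. Cyp4a12b, a fatty acid hydroxylase of male liver, stood at 13.25, 13.05, 11.92 and 13.38 against 7.16, 7.22, 8.44 and 8.77 (5.00 ± 0.96, 32.0-fold, adjusted p = 0.17). The middle tumours did not follow their Glul level: tumours 10 and 4 had Cyp4a12b at 12.03 and 13.04 and tumour 7 at 7.83. The Y-linked gene Eif2s3y averaged 10.01 ± 2.02 and 8.93 ± 1.23 in the sets, against 6.10 in the Mst1/2 flox livers. Xist averaged 6.13 ± 0.08 and 6.26 ± 0.17, against 10.91 in those livers, and exceeded background on 0 and 1 of 4 arrays. The part of these genes or of sex in the difference was not tested. The female-biased list (14 tested) had a median of 0.01.

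All 14 cholesterol synthesis genes had a positive difference, with a median of 0.44 and none past the threshold. At an unadjusted p below 0.05, 3 were higher, against 3.58% of all genes. Without overlap, 3 were higher (21.4%, against 2.07% of all genes): Msmo1, Insig1 and Pmvk, named after their values were seen. Of 21 cytochrome P450 and drug metabolism genes none passed. At an unadjusted p below 0.05, 8 were higher and 1 lower, against 3.58% and 3.73% of all genes. Without overlap, 5 were higher (23.8%, against 2.07% of all genes), with a median of 0.80, but this list shares members with the pericentral list. The 18 fetal liver and tumour-associated genes had a median of -0.23. Without overlap, 2 were lower (11.1%, against 2.24% of all genes) and 0 higher (against 2.07%). Among them the imprinted gene Peg3 (6.76 against 9.87, adjusted p = 0.31) and Golm1, a Golgi protein gene (8.36 against 10.26, adjusted p = 0.19), were lower without overlap, while Gpc3, a glypican of fetal liver, averaged 11.49 and 12.03 (adjusted p = 0.90). Gpx2, a glutathione peroxidase of the NRF2 list, averaged 7.65 and 11.45 (-3.80 ± 0.99, adjusted p = 0.35).

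Markers of other cells in the tissue gave no call in limma. At an unadjusted p below 0.05, 7 of 25 endothelial, 3 of 6 erythrocyte and 2 of 23 macrophage genes were higher, against 3.58% of all genes. Endothelial markers had a median of 0.28 and 4 were higher without overlap (16%, against 2.07% of all genes): Clec4g, a lectin of sinusoidal endothelium (11.02 against 8.20, 2.82 ± 0.77, adjusted p = 0.38), with Eng, Gpr182 and Clec1b, named after their values were seen. Their summed linear level ran from 12240 to 25530 in the Glul-high and from 11770 to 19430 in the Glul-low tumours. Erythrocyte genes were higher on average in all 6 tested members, with a median of 1.08, and summed to 39670 to 82650 against 17060 to 65660. The 7 MHC class II genes all had a negative difference (median -0.70), summing to 17560 to 95500 against 22250 to 109700. Macrophage and Kupffer cell markers (23 tested, median -0.30), matrix and stellate cell genes (30, median -0.09), biliary and progenitor markers (16, median -0.24) and pancreatic acinar genes (6, median 0.04) also held no gene past the threshold. All these summed ranges overlapped between the sets, and the part of these cells in the results was not tested.

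The Mst1/2 tumours, which the ranking did not use, held 1 tumour with high Glul. Mst1/2 tumour 3 had Slc1a2 at 12.31, against 6.01 to 7.44 in the other 3 Mst1/2 tumours, Rhbg at 9.30 against 6.38 to 6.92 and Nkd1 at 9.43 against 6.14 to 7.80. It exceeded the other 3 in 13 of 15 Wnt feedback and target genes and in 18 of 25 pericentral genes, against 20.1% of all genes. Sp5 stood at 11.13 against 6.28 to 7.28, and Lgr5 at 9.11 against 6.19 to 6.83. It was below the other 3 in 10 of 22 periportal genes, against 25.8% of all genes. Of the 7 genes that rose in the Sav1 comparison it exceeded the others in 6. Arg1 stood at 13.13 against 13.45 to 13.65, so the low Arg1 of the Glul-high Sav1 tumours, 9.62 to 10.95, was not seen in this tumour. All 4 Mst1/2 tumours lie in array set B, and a single tumour gives no test.

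Outside tumours, Glul was set against 6 genes over the 7 Sav1 surrounding livers, whose Glul level ran from 8.27 to 12.44. With exact permutation tests none of the 6 relations passed after adjustment. Rhbg gave Pearson r = 0.865 (p = 0.030, adjusted p = 0.18, exact permutation) and Spearman rho = 0.786 (p = 0.048, adjusted p = 0.20). Slc1a2 gave r = 0.711 (adjusted p = 0.24, exact permutation) and rho = 0.643 (adjusted p = 0.28), and Oat r = 0.656 (adjusted p = 0.24) and rho = 0.750 (adjusted p = 0.20). Axin2 (r = 0.343, rho = 0.179), Lgr5 (r = 0.293, rho = 0.250) and Cyp2e1 (r = -0.281, rho = -0.143) gave adjusted p of 0.52 for r and 0.78 for rho (exact permutation).

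The surrounding livers lie in array sets A (livers 1 to 3) and C (livers 4 to 7), and the relations moved with that split. Taken as deviations from the mean of each set, with exact permutation within sets, r was 0.940 for Slc1a2, 0.836 for Oat and 0.926 for Lgr5 (adjusted p = 0.042 each), 0.907 for Rhbg (adjusted p = 0.083), 0.685 for Axin2 (adjusted p = 0.14) and -0.132 for Cyp2e1 (adjusted p = 0.80). On ranks of the same deviations rho passed for Oat (0.857) and Lgr5 (0.929, adjusted p = 0.042 each, exact permutation) but not for Slc1a2 (0.857, adjusted p = 0.083), Rhbg (0.929, adjusted p = 0.083), Axin2 (0.393, adjusted p = 0.60) or Cyp2e1 (-0.0714, adjusted p = 0.94). Each set alone held too few livers for a correlation. Without the 2 livers farthest from the median Glul, r over the other 5 was 0.901 for Rhbg, 0.472 for Slc1a2, 0.352 for Oat, 0.0101 for Lgr5, -0.0446 for Axin2 and -0.908 for Cyp2e1, none past the threshold. With 5 livers the smallest p possible in exact permutation was 0.017, so a single relation among the 6 could not have passed after adjustment. These 5-liver values were not corrected for the array set.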

How the data were processed

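Total RNA of the tissues was labelled as biotinylated cRNA and hybridised to Illumina MouseWG-6 v2.0 arrays of 45281 probes, per the labels' protocols. The submitters' processing notes name BeadStudio without a version. The authors deposited linear probe intensity values with no detection p-values, and a series matrix of log2 values. The authors' deposited log2 values differed from signals that were only quantile normalized by at most 0.005, uncentred and in the same direction, and each column had a median of 6.57.

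Signals were corrected with normexp (offset 50), quantile normalized and taken to log2. Background was set at the 99th percentile of a distribution made by mirroring the lower signals of an array about their mode (thresholds 80.6 to 109 units, median signals 78.5 to 112). The 23300 probes that passed it on 3 or more arrays and had 1 gene were kept, and the brightest stood for a gene. Of all probes, 34885 had 1 gene symbol, 18 several and 10378 none, and 34807 matched RefSeq through Entrez identifiers, with 0 renamed. No pair of arrays was a duplicate (highest correlation 0.993).

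The fit used limma 3.58.1 (lmFit, eBayes) in R 4.3.3, two-sided, over the 11 Sav1 tumours. Correlations used exact permutation in scipy 1.17.1 (Python 3.11.15), and figures matplotlib 3.10.9. Steps that test many genes were checked on simulated data. The alternatives were the authors' log2 values, median scaling, no filter, a mean over probes, 8 tumours or 33 arrays in the fit, array set as a block or set B alone, a slope on Glul, and each of the 8 tumours left out. High against the 7 other tumours was chosen after seeing the data. The members and the 34 gene lists were chosen with earlier results of these data known.

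Genes named were Glul and Slc1a2, the 12 genes in each direction that passed or had the smallest p, the members of the Wnt feedback and pericentral lists, and in other lists the members that passed and the 2 with the largest difference in each direction. Some others, such as Ctnnb1 and members without overlap, were named after their values were seen. The rule also asked for genes by their correlation with Glul over the 11 tumours, which is not given because Glul fell into separate clusters.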

Additional observations from a re-analysis of the deposited data

Results flagged for a closer look

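In groups of 4 samples, a sample was singled out where its gap to the nearest of the others was large against the range of the group. This was looked for in 115 groups over 39 genes and held in 12, while chance gives about 5%. No explanation was tested. Of the 12, 4 were in the Mst1/2 tumours. There, Mst1/2 tumour 3 had Glul at 11.85 (others 7.26 to 7.74), Teddm1b at 8.30 (others 5.91 to 6.27) and Apcdd1 at 8.46 (others 6.11 to 6.19), and Mst1/2 tumour 4 had Cps1 at 13.88 (others 13.03 to 13.11).

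In the Glul-low Sav1 tumours, tumour 2 had Slc1a2 at 10.09 (others 6.24 to 6.69) and Cyp2d40 at 8.02 (others 8.43 to 8.50), and tumour 1 had Notum at 9.16 (others 6.41 to 6.83). In the Glul-high Sav1 tumours, tumour 3 had Oat at 15.54 (others 14.40 to 14.50), Cyp1a2 at 15.07 (others 13.10 to 13.26) and Rmdn2 at 11.74 (others 11.24 to 11.28). Tumour 8 had Sfrp2 at 11.30 (others 6.29 to 6.91) and Cyp2e1 at 15.28 (others 15.58 to 15.60).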

How the results depend on the processing

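Over 18 alternatives, the 24 genes named by p kept their direction, and 303 of their values kept their side of the threshold, 99 no longer passed and 30 newly passed. Counts of risen and fallen genes (7 and 2) became 5 and 1 with median scaling, 2 and 2 with no filter or with the array set as a block, 2 and 3 with 8 tumours, and 91 and 71 with 33 arrays in the fit. Of the 7 risen and 2 fallen genes, 0 and 1 passed again with 8 tumours, 6 and 2 with 33 arrays, 1 and 1 with the block and 2 and 2 with no filter. Within set B both counts were 0 in limma (1229 genes at an unadjusted p below 0.05), but there tumour 9 alone was the low set and was assumed to vary like the others, so this says nothing about stability. Leaving out 1 tumour gave 0 to 7 risen and 0 to 2 fallen genes. The Slc1a2 difference missed the threshold at 6.67 with no filter (adjusted p = 0.054) and with 8 tumours (0.087), at 6.79 with the block (0.074), and in 6 of 8 fits that left out 1 tumour (all 8 ran from 6.29 to 7.58). Its value within set B was 7.68. Over surrounding livers, deviations from array set means gave r = 0.940 for Slc1a2, 0.836 for Oat and 0.926 for Lgr5 (adjusted p = 0.042 each, exact permutation; on ranks Slc1a2 did not pass, 0.083), and r for Axin2 turned to -0.0446 without 2 livers. The causes were not tested. Medians of the Wnt feedback, pericentral, periportal and cell cycle lists kept their sign in 18 of 18. Genes near background have only a bound on one side. No paired analysis was possible because the tumours compared belong to 1 group and share no replicate numbers.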

Other observations

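Several programmes of liver metabolism held no gene past the threshold between Glul-high and Glul-low Sav1 tumours in limma. Plasma protein genes (29 tested, median difference 0.03, 1 lower at an unadjusted p below 0.05), hepatocyte transcription factors (17 tested, median 0.22, 3 higher), lipogenesis and lipid storage (22 tested, median 0.25, 3 higher), fatty acid oxidation and ketogenesis (18 tested, median 0.28, 3 higher) and glucose metabolism (18 tested, median 0.10, 1 higher) had medians between 0.03 and 0.28, against -0.01 over all genes, of which 3.58% were higher and 3.73% lower at an unadjusted p below 0.05. Nr1i3, the nuclear receptor CAR, averaged 9.28 in the Glul-high and 7.22 in the Glul-low tumours (2.05 ± 0.71, adjusted p = 0.56 in limma). Hnf4a, the master factor of hepatocytes, averaged 12.65 and 12.73. Among bile acid genes (19 tested, median 0.24, 1 higher and 1 lower at an unadjusted p below 0.05), Cyp8b1, which sets the share of cholic acid, averaged 11.51 and 13.50 (-1.99 ± 0.84, adjusted p = 0.64), while Slco1b2, a bile acid uptake carrier, averaged 15.19 and 13.65.

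Inflammatory lists also gave no call. For the counts below, 3.58% of all genes were higher and 3.73% lower at an unadjusted p below 0.05 in limma. Acute phase genes had a median of -0.49 (23 tested, 0 at an unadjusted p below 0.05), with Hamp, the iron hormone hepcidin, at 10.86 and 12.83 (-1.97 ± 1.19, adjusted p = 0.76). Interferon response genes had a median of -0.14 (21 tested, 3 higher at an unadjusted p below 0.05), and its sign changed in 2 of 18 alternatives. T and NK cell markers had a median of -0.38 (10 of 13 negative, 0 at an unadjusted p below 0.05). B and plasma cell markers had a median of -0.29 (5 of 8 negative, 1 higher and 1 lower at an unadjusted p below 0.05), and neutrophil markers a median of -0.49 (12 of 13 negative, 1 lower). Cd3e, a chain of the T cell receptor complex, averaged 7.40 and 8.47 (-1.07 ± 0.49, adjusted p = 0.68).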
